A study of Mus musculus with 20 samples.

Results

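The genes encoding the cytoplasmic ribosomal proteins were followed in the RNA of activated mouse CD8+ T cells. Members were chosen by name alone, as every gene whose symbol has the form of a ribosomal protein of the large subunit (Rpl) or the small subunit (Rps), with the Rps6k kinases left out. This gave 84 of 23992 genes, 51 of them named for the large subunit and 33 for the small subunit, and the genes were represented by their longest listed transcript. Of the 84 genes, 77 are called core members here. The other 7 are called paralogs, a term used here for genes related by name to a core gene. Among these 7, Rps4l is listed as a transcribed processed pseudogene. The cells were CD8+ T cells purified by negative selection from spleens of 6- to 8-week-old wild-type C57BL/6J mice. All cells, those of the unstimulated groups included, had been activated for 48 hours with antibodies to CD3 and CD28 and rested overnight. They were then given murine interleukin-21 (mIL-21, the native cytokine) or 21h10 (a designed protein that mimics interleukin-21) for 24 hours, or neither. Experiment 1 used the doses 100 pM and 1 nM of each protein and experiment 2 the doses 10 nM and 100 nM. Each experiment had unstimulated cells of its own, which made 5 groups per experiment with 2 libraries in each. Since no dose was used in both experiments, effects of dose range and of experiment cannot be told apart.

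A cytoplasmic ribosome is built from ribosomal RNA and about equal amounts of each ribosomal protein, and the genes for these proteins are among the most highly expressed in dividing cells, such as activated T cells. Many of their mRNAs start with a terminal oligopyrimidine tract, a C followed by a run of C and T, through which the mTORC1 kinase pathway and the protein LARP1 control their translation and stability. Interleukin-21 is made by CD4+ T cells and acts on CD8+ T cells through STAT proteins.

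The tract is the sequence feature by which these mRNAs are best known, and the start sites below show it in core genes and in their paralogs. RefSeq promoter windows (build GRCm38.p6) were matched for 63 of the 84 members. A tract was counted where a C within 5 bases of the annotated start was followed by at least 4 pyrimidines on the strand of the gene. It was found in 29 of the 63 members (46.0%) and in 21.2% of the 27025 genes with a window. Each line gives the last 10 bases before the annotated start and the first 20 bases from it, 5′ to 3′, with the tract in capitals. Core genes are Rplp2 (chr7:141447641-141447670, + strand), Rps2 (chr17:24720053-24720082, + strand), Rps27 (chr3:90213629-90213658, − strand), Rpl39 (chrX:37085203-37085232, − strand) and Rpsa (chr9:120127756-120127785, + strand), and paralogs are Rps27l (chr9:66946076-66946105, + strand), Rpl22l1 (chr3:28805498-28805527, + strand), Rpl39l (chr16:10170218-10170247, + strand) and Rpl7l1 (chr17:46782637-46782666, − strand).
Rplp2: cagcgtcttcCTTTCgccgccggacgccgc
Rps2: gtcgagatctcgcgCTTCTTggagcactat
Rps27: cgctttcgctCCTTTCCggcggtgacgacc
Rpl39: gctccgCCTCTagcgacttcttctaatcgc
Rpsa: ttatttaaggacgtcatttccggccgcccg
Rps27l: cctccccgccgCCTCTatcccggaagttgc
Rpl22l1: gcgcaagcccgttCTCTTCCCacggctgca
Rpl39l: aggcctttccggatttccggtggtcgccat
Rpl7l1: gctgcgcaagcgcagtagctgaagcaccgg

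By these letters 34 members with a window had no tract, Rpsa, Rpl39l and Rpl7l1 among them, which says only that the run is not within this distance of the annotated start. In the whole window of 250 bases before to 50 bases after the start, the letters CCGGAA, bound by ETS-family factors such as GABP, were found on either strand in 35 of the 63 members (55.6%) against 16.7% of all genes with a window. AAGATGGC, the motif of YY1, was found in 6 members (9.52%) against 3.19%, and TTCNNNGAA, the motif of STAT proteins, in 3 members (4.76%) against 9.55%. Among the 15188 of these genes with a coding RefSeq transcript listed, the shares were 21.6% for CCGGAA, 3.69% for AAGATGGC and 9.13% for TTCNNNGAA. The share with a tract was 21.8% among them. A match of TTCNNNGAA can hold CCGGAA, and all these matches are descriptions of the letters only.

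The libraries held 40317113 to 110876981 mapped reads, of which 2131290 to 11904277 fell on the 84 genes. Reads on genes made up 80.5% to 86.0% of mapped reads in experiment 1 and 66.2% to 80.9% in experiment 2, and in experiment 2 this share was lower in treated groups (means of 68.0% to 74.1%) than in unstimulated cells (78.7%). Counts in the 2 libraries of a group differed by more than sampling noise in all 10 groups. The 5 CD8+ T cell markers (Cd3d, Cd3e, Cd3g, Cd8a and Cd8b1) were high in all libraries, with a summed RPKM (reads per kilobase of transcript, scaled by the mapped reads of the library) of 880.5 to 1388. Of the 4 myeloid markers, Csf1r (at most 0.0128 RPKM) and Lyz2 (at most 0.233 RPKM) were at or near 0 in every library, while the summed level of the 4, carried by Itgam and Cd68, was 3.39 to 3.64 RPKM in unstimulated and 16.4 to 34.4 RPKM in treated libraries of experiment 1, and 4.63 to 4.81 against 12.3 to 22.7 RPKM in experiment 2. Summed B cell markers lay between 2.77 and 10.5 RPKM, NK cell markers between 4.46 and 44.0 RPKM, CD4 T cell markers between 0.639 and 1.55 RPKM and erythroid markers between 0 and 0.696 RPKM, and their part in the results below was not tested. The sum of the 3 NK cell markers was carried by Eomes (4.40 to 43.96 RPKM), which CD8+ T cells also express, while Klrb1c reached at most 0.265 and Ncr1 at most 0.196 RPKM. In RNA from whole cultures, fewer cells of a type and less RNA per cell cannot be told apart.

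Core members were high and spread over a wide range of levels per length. Their mean RPKM over the 20 libraries ran from 136.8 (Rps15a, listed with a transcript of 5134 bases) to 2884 (Rpl23a), with a median of 1304 and quartiles of 927 and 1778, and 53 of the 77 exceeded 1000 RPKM. Rpl23a, Rpl41 and Rpl32, all proteins of the large subunit, had the highest mean levels. The stalk of the large subunit, which recruits elongation factors, is formed by Rplp0, Rplp1 and Rplp2, and these stood at 1908 and 1971, 2189 and 2316, and 1048 and 1148 RPKM in the unstimulated libraries of experiment 1.

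By RPKM the paralogs were lower, apart from Rpl22l1. Rpl10l, a testis gene in mice, had 0 reads in all 20 libraries, and Rpl3l, known from muscle, had at most 2 reads in any library, so that these 2 members were not tested and the other 82 were. Rpl39l reached 0.129 to 0.991 RPKM and Rps4l 0.579 to 2.24 RPKM, on 6 to 71 and 26 to 187 reads. Rpl7l1, known for its part in assembling the large subunit, lay between 14.4 and 66.4 RPKM and Rps27l, a known target of p53, between 75.4 and 461 RPKM. By RPKM, Rpl22l1 exceeded its core gene in the unstimulated libraries of experiment 1, at 152% and 160% of the level of Rpl22. This order depends on transcript length, by which RPKM divides. Rpl22 is represented by a transcript of 2357 bases, the longest of 5 listed, and Rpl22l1 by a transcript of 477 bases. At these lengths Rpl22l1 had fewer reads than Rpl22 in those libraries. GENCODE lists Rps4l (chr6:148354656-148355598, + strand) as a transcribed processed pseudogene and the other paralogs named here as protein coding.

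Near-identical copies limit what the counts of single members mean. A copy with at least 95% identity over at least 100 bases was found in the annotation for 79 of the 84 members, and such copies covered more than 50% of the transcript in 62 of them. The 5 members without one included the paralogs Rpl39l, Rpl3l, Rps27l and Rps4l, and for Rpl7l1 107 copies covered 38.5% of the transcript. In the deposited counts, the entry named Rps27rt had reads identical to those of a transcript of Rps27 in 20 of 20 libraries. The entry named Rpl34-ps1 had 96.9% to 99.7% of the reads of Rpl34. Both entries are listed there on chromosome 3, as are Rps27 and Rpl34, whereas GENCODE places Rps27rt on chromosome 9 and Rpl34-ps1 on chromosome 6. Their matching reads therefore do not show reads shared with a distant copy. Given the copies in the annotation, counts of core members may include reads that come from a copy.

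In experiment 1 the set as a whole took a larger share of gene reads after cytokine, and in experiment 2 a smaller one. Unstimulated cells of experiment 1 gave 10.7% and 10.9% of gene reads to the 84 genes. At 100 pM the share was 12.9% and 13.1% after mIL-21 and 13.4% and 12.9% after 21h10, and at 1 nM it was 12.2% and 13.0% after mIL-21 and 12.4% and 12.4% after 21h10. All 8 treated libraries of experiment 1 lay above both unstimulated ones. Unstimulated cells of experiment 2 gave 10.9% and 9.91%. At 10 nM the share was 8.53% and 7.77% after mIL-21 and 8.44% and 7.74% after 21h10, and at 100 nM it was 8.38% and 7.73% after mIL-21 and 8.18% and 7.87% after 21h10. All 8 treated libraries of experiment 2 lay below both unstimulated ones, and duplicate 1 was above duplicate 2 in 5 of its 5 groups, against 1 of 5 in experiment 1. Group means were 10.8% ± 0.0967 (SD, n = 2) without cytokine and 12.4% to 13.1% with it in experiment 1, and 10.4% ± 0.717 and 8.03% to 8.15% in experiment 2.

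**Figure D1:**
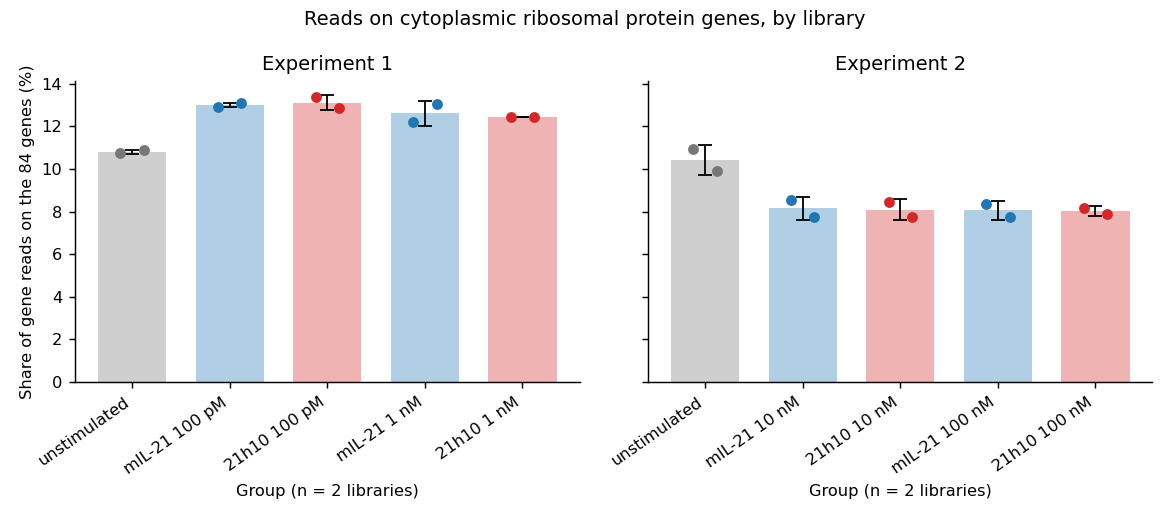
Share of gene reads (%) that fell on the 84 cytoplasmic ribosomal protein genes, by group in experiment 1 (left) and experiment 2 (right). Points are single libraries (grey unstimulated, blue mIL-21, red 21h10), bars are means of 2 libraries and error bars are SD; treated libraries sit between 12.2% and 13.4% on the left and between 7.73% and 8.53% on the right, on opposite sides of their unstimulated libraries.

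In experiment 1, most members rose modestly with cytokine, and 3 paralogs fell by much more than any member rose. All treated groups were compared with unstimulated cells in the quasi-likelihood test of edgeR, with p adjusted after Benjamini and Hochberg over 13974 genes, and 65 of the 82 tested members passed an adjusted p of 0.05, 56 of them higher and 9 lower. Among all genes tested 84.3% passed, 41.3% higher and 43.0% lower, so that the share of members that passed was below that of all genes, while the split between higher and lower was not even. The median log2 fold change of the members was 0.20 with quartiles of 0.07 and 0.30, beside a median of -0.01 over all genes tested. Core members of the large subunit (32 of 46 higher, 3 lower, median 0.19) and of the small subunit (24 of 31 higher, 2 lower, median 0.23) moved alike, and for 58 of the 82 members the treated and unstimulated libraries did not overlap, which held for 70.3% of all genes tested. In the separate groups of the 100 pM dose, mIL-21 gave 45 members higher and 12 lower, where 77.7% of all genes passed (38.3% higher, 39.4% lower), and 21h10 gave 58 higher and 5 lower, where 81.6% passed (40.2% higher, 41.3% lower). At 1 nM, mIL-21 gave 45 higher and 8 lower, where 80.1% of all genes passed (39.9% higher, 40.3% lower), and 21h10 gave 63 higher and 3 lower, where 80.3% passed (38.3% higher, 42.1% lower). In each of these 4 comparisons, which share the unstimulated libraries, 42 members were called higher throughout, as were 28.6% of all genes tested, and the same 3 members, Rpl7l1, Rps27l and Rps4l, were called lower throughout, as were 32.0% of all genes.

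Rpsa and Rpl13 stood for the members that rose most in experiment 1. Rpsa, the laminin receptor and a protein of the small subunit, went from 1682 and 1720 to between 2211 and 2677 RPKM, with a median of 2452, so that the groups did not overlap (log2 fold change 0.54, SE 0.04, edgeR adjusted p = 1.18e-09). Rpl13 went from 1777 and 1827 to between 2336 and 2751 RPKM, with a median of 2544 (log2 fold change 0.50, SE 0.04, edgeR adjusted p = 6.08e-09). The stalk proteins rose too, with log2 fold changes of 0.38 for Rplp0, 0.29 for Rplp1 and 0.25 for Rplp2, all with SE of at most 0.06. Of the members with the highest levels, Rpl41 rose by 0.43, Rpl32 by 0.44 and Rpl23a by 0.36 on the log2 scale.

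In experiment 2 the direction was the opposite for most members. Of the 82 tested, 57 were lower and 1 was higher in all treated groups together than in unstimulated cells (edgeR's quasi-likelihood test, adjusted p under 0.05), while among 13772 genes 57.5% passed, 30.1% lower and 27.5% higher. The median log2 fold change of the members was -0.32 with quartiles of -0.45 and -0.17, beside -0.01 over all genes tested. Core members of the large subunit (31 of 46 lower, median -0.28) and of the small subunit (23 of 31 lower, median -0.36) fell in like numbers. Treated and unstimulated libraries did not overlap for 55 of the 82 members, against 49.6% of all genes tested. In the separate groups of the 10 nM dose, mIL-21 gave 48 members lower, where 46.2% of all genes passed (23.7% lower), and 21h10 gave 44, where 50.1% passed (24.9% lower). At 100 nM, mIL-21 gave 52 members lower, where 46.2% of all genes passed (23.7% lower), and 21h10 gave 48, where 50.8% passed (25.8% lower). In all 4 comparisons, which share the unstimulated libraries, 35 members were called lower, against 16.3% of all genes tested. The comparison of 21h10 at 100 nM had 2 members called higher, with Rpl23 at 0.35 on the log2 scale. Of all libraries, unstimulated duplicate 1 weighed most on this comparison, and without it the median was -0.23 and 43 members passed, while without duplicate 2 the median was -0.41. In the separate groups, leaving out unstimulated duplicate 1 lowered the count for mIL-21 to 24 (10 nM) and 30 (100 nM). Leaving out duplicate 2 of the treated group itself lowered it to 16 (mIL-21) and 21 (21h10) for the 10 nM dose and to 19 (mIL-21) for the 100 nM dose.

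Rps2, a small subunit protein that lies near the mRNA entry channel (chr17:24718116-24721929, + strand), stood for the members that fell most. Its RPKM was 2435 and 1813 in unstimulated cells of experiment 2 and between 840 and 1154, with a median of 989, in the 8 treated libraries, all below. The log2 fold change was -0.84 (SE 0.08, edgeR adjusted p = 3.82e-07), whereas in experiment 1 Rps2 rose by 0.31 (SE 0.04, edgeR adjusted p = 1.74e-06). Rps14, whose human counterpart is known from the anaemia of 5q deletion, had 1341 and 838 RPKM in unstimulated cells of experiment 2 and 357 to 676, with a median of 528, in treated ones. The 2 unstimulated libraries differed from each other by more than the lower of them differed from any treated library, and the log2 fold change was -0.85 (SE 0.12, edgeR adjusted p = 1.69e-05). Rplp1 fell by 0.68, Rplp2 by 0.41 and Rplp0 by 0.21 on the log2 scale (SE 0.12, 0.10 and 0.08), and without unstimulated duplicate 1 the change of Rplp0 was -0.03 and no longer passed. Rpl27a and Rpl4 fell little, by 0.18 and 0.17, and neither Rpl41 (-0.18, edgeR adjusted p = 0.0914), Rpl32 (-0.13, edgeR adjusted p = 0.189) nor Rpl23a (0.08, edgeR adjusted p = 0.394) passed the test.

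The difference between the experiments was itself tested in a fit of all 20 libraries, as the response in experiment 2 minus that in experiment 1. It passed for 74 of the 82 members, 71 with a lower and 3 with a higher response in experiment 2, where 64.7% of 14530 genes passed, 33.5% lower and 31.2% higher. The median difference of the members was -0.59 on the log2 scale, beside -0.02 for all genes tested. Rps2 differed most among those lower in experiment 2 (-1.21, SE 0.11, edgeR adjusted p = 2.87e-09), and the 3 members on the other side were Rpl7l1 (1.59), Rps27l (1.18) and Rps4l (0.91). By the calls of each experiment, 40 members were higher in experiment 1 and lower in experiment 2, which held for 10.2% of the 13248 genes tested in both. Another 8 members were lower in both, with Rpl10, Rpl22l1, Rpl7l1 and Rps27l among them, and 1 was higher in both, beside 17.3% and 16.1% of those genes. Across the 82 members the 2 responses, which come from separate libraries, had a Pearson r of 0.17 and a Spearman rho of 0.24, against 0.35 and 0.27 over the genes tested in both, as a description across genes that are not independent.

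**Figure D2:**
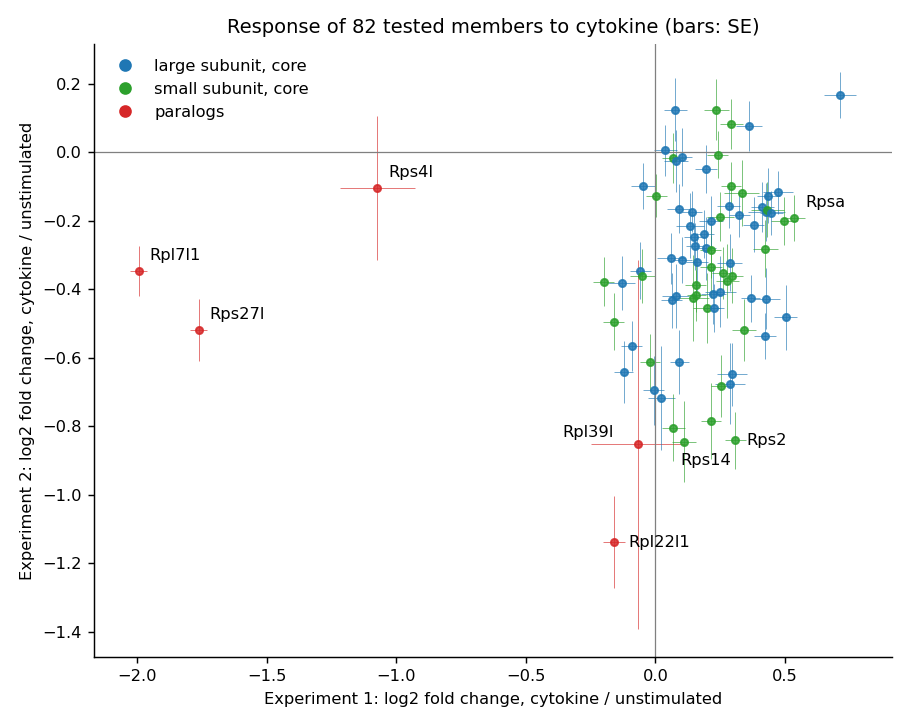
Log2 fold change of treated over unstimulated cells in experiment 1 (horizontal axis) and experiment 2 (vertical axis) for the 82 tested members, with bars of 1 SE; blue points are core large subunit genes, green points core small subunit genes and red points paralogs. Most points lie to the right of 0 and below 0, while Rpl7l1, Rps27l and Rps4l lie far to the left and Rpl22l1 lies lowest, at -1.14 in experiment 2.

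Members that stood apart from the set were mostly paralogs. An outlier was taken to be a member whose log2 fold change lay more than 3 scaled median absolute deviations from the median of the 82 tested members. In experiment 1 these were Rpl7l1, Rps27l and Rps4l, and in experiment 2 only Rpl22l1. Rpl7l1 (chr17:46773907-46782672, − strand) had 65.6 and 66.4 RPKM in unstimulated cells of experiment 1 and between 14.4 and 20.5, with a median of 15.4, in the treated libraries. Its log2 fold change was -1.995 (SE 0.03, edgeR adjusted p = 9.04e-19), a level 0.251 times that of unstimulated cells. Its core gene Rpl7 rose by 0.15 in the same comparison, so that Rpl7l1 went from 3.25% and 3.26% of the RPKM of Rpl7 to between 0.643% and 0.917%. In experiment 2 Rpl7l1 started lower, at 30.2 and 25.6 RPKM, and reached 16.0 to 20.6 RPKM, with a median of 18.7, after treatment (log2 fold change -0.35, SE 0.07, edgeR adjusted p = 7.34e-04). The treated ranges of the 2 experiments overlapped and the unstimulated ones did not, a difference that was not tested.

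Rps27l (chr9:66946086-66949516, + strand) was also highest in the unstimulated cells of experiment 1. It had 461 and 461 RPKM in unstimulated cells of experiment 1 and between 131 and 147 RPKM in treated ones, with a median of 133, which gave a log2 fold change of -1.76 (SE 0.03, edgeR adjusted p = 4.88e-18). In experiment 2 it had 154.8 and 142.8 RPKM without cytokine and 75.4 to 103 with it (log2 fold change -0.52, SE 0.09, edgeR adjusted p = 1.36e-04). Rps27, the core gene, rose by 0.28 in experiment 1 and fell by 0.38 in experiment 2. Rps27l therefore made up 37.99% and 38.61% of the RPKM of Rps27 in unstimulated cells of experiment 1 and 8.54% to 10.14% in treated ones, while in experiment 2 the shares of 13.6% and 18.2% without cytokine and 12.2% to 17.2% with it overlapped. Rps4l, at low levels, went from 1.79 and 1.94 RPKM to between 0.579 and 1.59 RPKM in experiment 1 (log2 fold change -1.07, SE 0.15, edgeR adjusted p = 2.20e-06) and did not pass in experiment 2 (-0.11, SE 0.21, edgeR adjusted p = 0.687), where 2.22 and 2.24 RPKM stood beside 1.21 to 2.23 RPKM.

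Rpl22l1 (chr3:28805436-28807424, + strand), whose protein and that of Rpl22 are known to act on each other's expression in T cell development, changed most in experiment 2. Its RPKM was 328.5 and 206.4 in unstimulated cells of experiment 2. At 10 nM it was 134.8 and 124.3 after mIL-21 and 107 and 94.7 after 21h10, and at 100 nM it was 133.7 and 80.8 after mIL-21 and 78.4 and 77.2 after 21h10. All treated libraries lay below both unstimulated ones, which differed from each other by more than the span of the treated libraries. The log2 fold change over all treated groups was -1.14 (SE 0.13, edgeR adjusted p = 2.73e-06), and in experiment 1 it was -0.16 (SE 0.04, edgeR adjusted p = 0.00184), from 363 and 357 to between 290 and 345 RPKM. Without unstimulated duplicate 1 of experiment 1 that smaller fall, of 0.13, did not pass. As a percent of the RPKM of Rpl22, Rpl22l1 fell from 152% and 160% to between 113.4% and 135.6% in experiment 1. In experiment 2 this percent went from 152% and 92.5% to between 47.4% and 94.1%. The size of these percents depends on the listed transcript lengths, which differ between Rpl22l1 and Rpl22. Rpl39l was not called in experiment 1 (-0.07, SE 0.18) or experiment 2 (-0.85, SE 0.54, edgeR adjusted p = 0.188), where its counts of 6 to 34 reads leave little precision. Of the other core genes with a paralog, Rpl3 rose by 0.37 and Rps4x by 0.16 in experiment 1, Rpl10 fell by 0.12 and Rpl39 did not pass (0.02), and in experiment 2 all 7 core genes with a paralog were lower, by 0.28 (Rpl7 and Rpl22) to 0.72 (Rpl39) on the log2 scale.

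**Figure D3:**
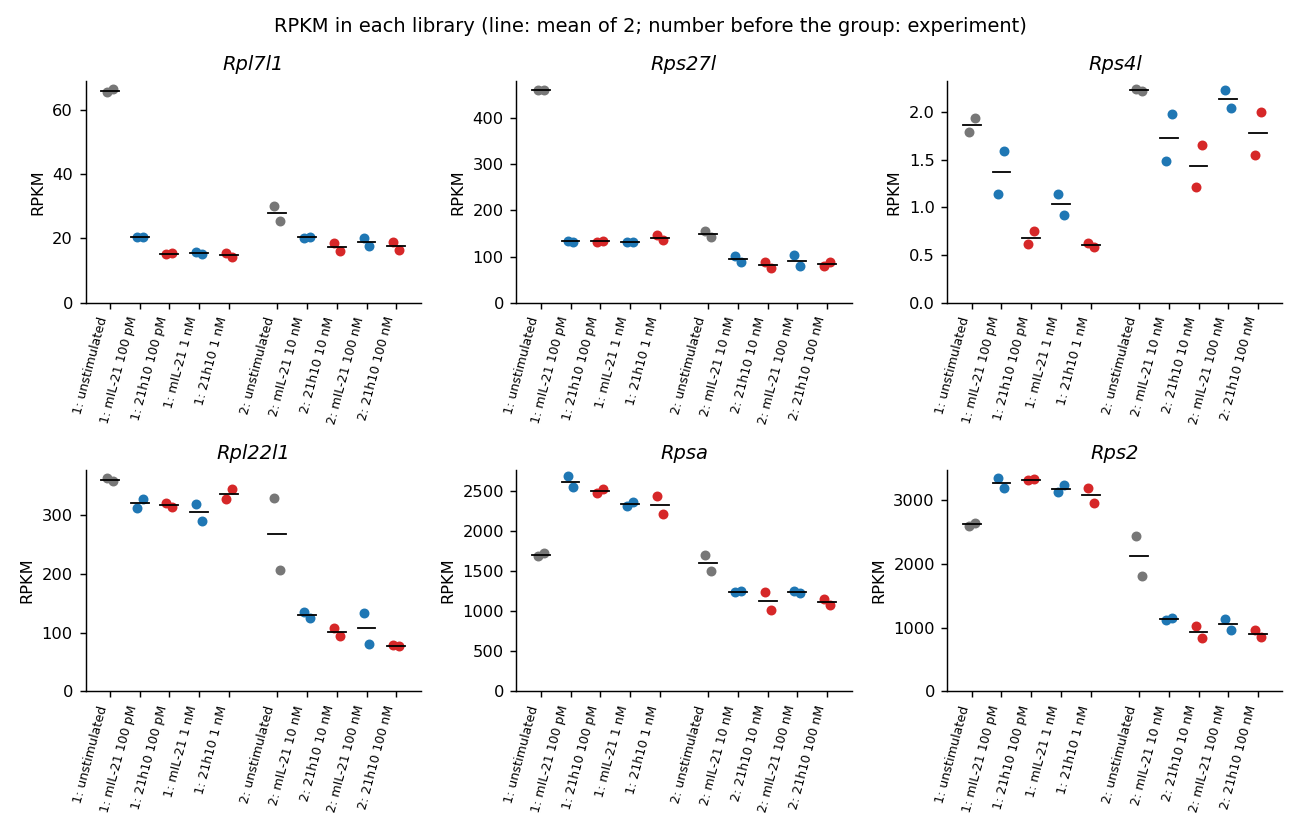
RPKM (vertical axes, from 0) of Rpl7l1, Rps27l, Rps4l, Rpl22l1, Rpsa and Rps2 in each of the 20 libraries by group, with experiment 1 on the left and experiment 2 on the right of each panel; points are libraries (grey unstimulated, blue mIL-21, red 21h10) and black lines the means of 2. Rpl7l1 and Rps27l are highest in the unstimulated cells of experiment 1, and the 2 unstimulated libraries of experiment 2 lie apart for Rpl22l1 (328.5 and 206.4) and Rps2 (2435 and 1813).

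The comparison of 21h10 with mIL-21 at the same dose asked whether the designed protein acts on these genes as the native cytokine does. At 100 pM, 20 members were higher and 2 lower with 21h10, where 38.6% of all genes passed, 19.6% higher and 19.0% lower. The median log2 fold change of the 82 members was 0.08 beside -0.01 over all genes tested, and 75 of them had a positive sign. At 1 nM, 13 members were higher and 1 lower, where 37.7% of all genes passed, 19.6% higher and 18.1% lower, and the median was again 0.08. These counts were not stable to the loss of a library. The shares of all genes in the refits are not given here, so it is not shown whether the members alone or all genes moved. At 100 pM, 5 members passed without mIL-21 duplicate 1, 10 without mIL-21 duplicate 2 and 5 without 21h10 duplicate 1. At 1 nM, 42 passed without mIL-21 duplicate 2, 23 without 21h10 duplicate 1, 8 without mIL-21 duplicate 1 and 3 without 21h10 duplicate 2. Leaving out a library of another group also moved the count at 1 nM, to 7 without either unstimulated duplicate and to 9 without either duplicate of mIL-21 at 100 pM. The 2 doses have separate libraries, and 6 of the 82 members, with Rpl31 and Rps25 among them, were called higher at both. Of all 13974 genes tested, 1501 (10.7%) were called higher at both. The 6 members are 30% of the members called higher at 100 pM and 46.2% of those at 1 nM. For all genes, the 1501 stand beside 2745 called higher at 100 pM and 2735 at 1 nM.

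Rps25 (chr9:44407139-44410427, + strand), a small subunit protein known to be needed by some internal ribosome entry sites, had the largest rise at both doses. It had 1106 and 1164 RPKM with mIL-21 and 1292 and 1286 with 21h10 at 100 pM, and 1194 and 1192 against 1321 and 1474 RPKM at 1 nM, with no overlap. The log2 fold changes were 0.29 (SE 0.06, edgeR adjusted p = 0.00107) and 0.28 (SE 0.06, edgeR adjusted p = 0.00145). At 100 pM, Rpl8 and Rpl31, both of the large subunit, followed with 0.23 and 0.22, and at 1 nM Rpl30 and Rpl36a with 0.19 each. Rps4l was lower with 21h10 at both doses. It had 1.14 and 1.59 RPKM with mIL-21 against 0.612 and 0.751 with 21h10 at 100 pM, and 1.15 and 0.923 against 0.625 and 0.579 RPKM at 1 nM, with log2 fold changes of -0.86 (SE 0.22, edgeR adjusted p = 0.00518) and -0.73 (SE 0.26, edgeR adjusted p = 0.0344). Rpl7l1 was lower with 21h10 at 100 pM (20.5 and 20.5 against 15.02 and 15.42 RPKM, log2 fold change -0.33, SE 0.05, edgeR adjusted p = 3.98e-05) and level at 1 nM, where its values were 15.8 and 15.2 against 15.4 and 14.4 RPKM. It was the only member for which the difference between the doses passed (0.31, SE 0.07, edgeR adjusted p = 0.00401), where 18.4% of all genes passed. Without duplicate 1 of mIL-21 at 1 nM, 7 members passed in that test, 1 with a larger and 6 with a smaller difference at 1 nM, and without duplicate 2 of that group 2 passed.

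Between 21h10 at its lower dose (100 pM) and mIL-21 at its higher dose of experiment 1 (1 nM), no member passed edgeR's test, 11 had an unadjusted p under 0.05 and DESeq2 also called 0, while 0.737% of all genes passed. The median was 0.07 and 6 members passed without duplicate 2 of mIL-21 at 1 nM. In experiment 2 no member passed edgeR's test at 10 nM or at 100 nM, where 0.00726% and 8.53% of all genes passed. An unadjusted p under 0.05 was found for 4 and 11 members, and DESeq2 called 0 and 2. With the replicate number as a block, some members did pass at 100 nM, as given in the closing section. At 100 nM, 6 members passed without either unstimulated duplicate, 2 without either duplicate of mIL-21 at 10 nM and 1 without either duplicate of mIL-21 at 100 nM. The estimates for core members, taken with 2 SE on either side, reached at most from -0.75 to 0.52 at 10 nM and from -0.76 to 0.56 at 100 nM, with a median interval of -0.23 to 0.18 and of -0.24 to 0.18, so that differences of the size seen in experiment 1 lie within them. No member passed in the test of the difference between 10 nM and 100 nM by edgeR or DESeq2, and none had an unadjusted p under 0.05, where 0.922% of all genes passed. Rpl36 deviated most from the set in that difference, with 0.23 (SE 0.17, edgeR adjusted p = 0.849).

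**Figure D4:**
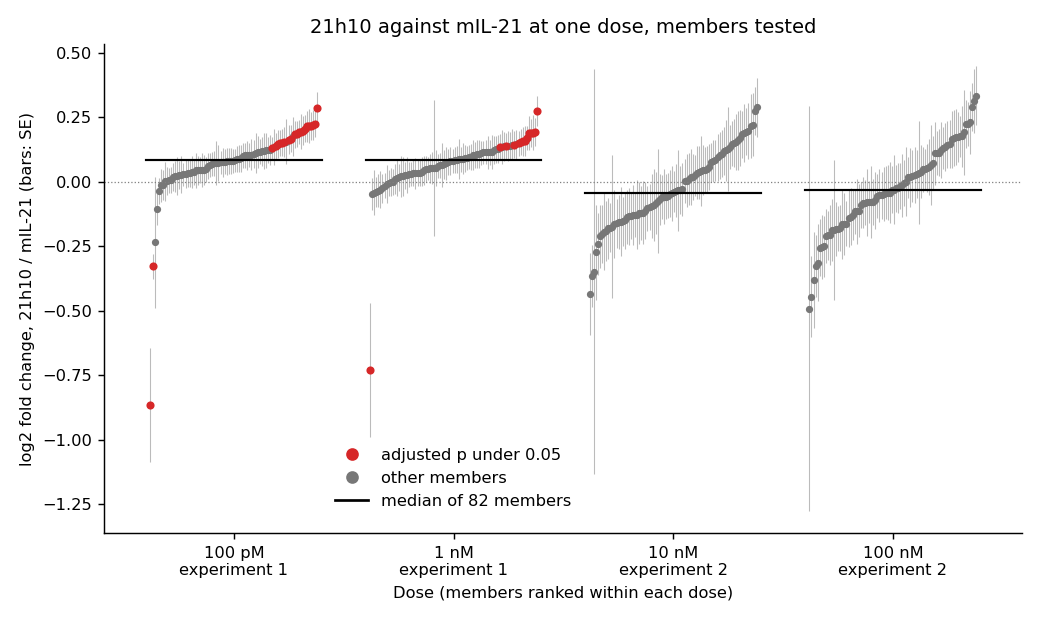
Log2 fold change of 21h10 over mIL-21 for the 82 tested members, ranked within each dose, with bars of 1 SE and a black line at the median of the members; red points passed an adjusted p of 0.05 in edgeR. Medians are 0.08 at 100 pM and 1 nM, and -0.04 and -0.03 at 10 nM and 100 nM, where no point is red.

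How the libraries were scaled set the size of these changes and, in a few cases, their sign. The main values rest on TMM, which places the median of all genes near 0. Scaling to mapped reads, as RPKM does, left the median of all genes at -0.26 in treated against unstimulated cells of experiment 2, with -0.57 for the members, of which 75 were lower and none was higher. Shares of all genes called under mapped reads are not given here, so the counts under that scaling do not set the members apart. Relative to the median of all genes, the members stood at -0.31 under both scalings. A change of scaling shifts all genes of a library alike. This distance therefore stays nearly the same by construction, here and in the comparisons below. In experiment 1 the all-gene median under mapped reads was -0.02, and the members stood at 0.20 relative to it, the same as under TMM. For 21h10 against mIL-21 at 100 pM, mapped reads placed the median of all genes at -0.11 and that of the members at -0.02, with 1 member higher and 4 lower in place of 20 and 2. The members stood 0.09 above the median of all genes in that comparison under both. At 1 nM the members stood 0.09 above it as well, with an all-gene median of -0.06 under mapped reads and 2 members higher and 1 lower. Rpl30 in experiment 2 had a log2 fold change of 0.01 under TMM and of -0.24 under mapped reads. Leaving the members out of the TMM factors moved the median of the members by 0.01 at most in the comparisons of all treated groups, from 0.20 to 0.20 in experiment 1 and from -0.32 to -0.31 in experiment 2.

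**Figure D5:**
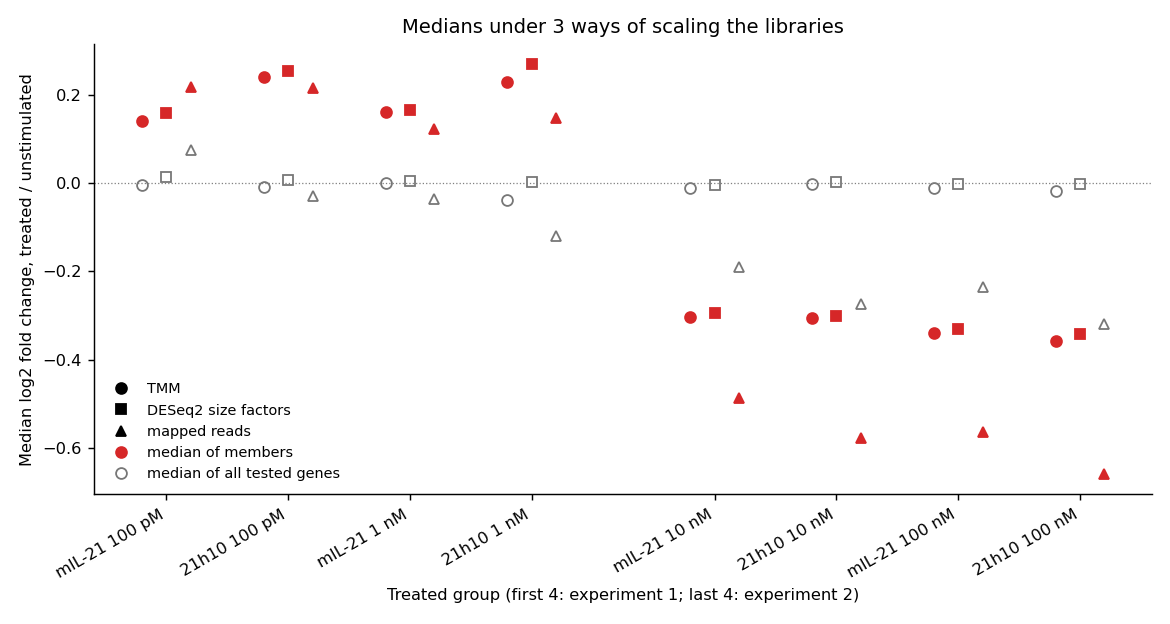
Median log2 fold change of treated over unstimulated cells for each treated group (horizontal axis), for the members tested (red) and all genes tested (grey, open), with libraries scaled by TMM (circles), by DESeq2 size factors (squares) or by mapped reads (triangles). Under mapped reads both medians move down together in experiment 2. The distance between them, which a common shift of all genes leaves unchanged, lies between -0.29 and -0.34.

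Related genes were examined as lists chosen for their roles, and their counts stand beside those over all genes tested, of which 41.3% were higher and 43.0% lower in experiment 1 and 27.5% higher and 30.1% lower in experiment 2. Of the 76 mitochondrial ribosomal proteins, 66 were lower and 5 higher in experiment 1, with a median log2 fold change of -0.85, and 47 lower and 2 higher in experiment 2, with a median of -0.29. In experiment 1 they thus moved against the cytoplasmic set, and in experiment 2 with it. Of 5 tested ribosomal proteins named outside the Rpl and Rps pattern, 4 were higher in experiment 1, Fau by 0.79 and Gnb2l1, the gene of Rack1, by 0.35 among them, and 2 were lower in experiment 2 (Gnb2l1 by 0.54 and Rps27rt, whose reads are those of Rps27, by 0.38). Of 7 tested elongation factors and their regulators, 3 were higher and 3 lower in experiment 1, where Eef2k, the inhibitory kinase of Eef2, rose by 1.12 and Eef1e1 fell by 1.01, and 5 were lower and 1 higher in experiment 2, where Eef1g fell by 0.61 and Eef1b2 by 0.44. Of 39 initiation factors, 30 were lower and 7 higher in experiment 1 (median -0.58, with Eif4g1 at -1.42) and 10 lower and 6 higher in experiment 2 (median -0.03). The dedicated chaperones that carry single ribosomal proteins to assembly fell most in experiment 1, where 6 of 7 were lower with a median of -1.85. Grwd1, the chaperone of Rpl3, fell by 3.03, and Heatr3, which acts on Rpl5, fell by 2.77. In experiment 2, 3 were lower and 1 higher, and Grwd1 fell by 0.60.

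Among 6 other mRNAs known for a terminal oligopyrimidine tract, 3 were higher and 3 lower in experiment 1 (Vim 1.94, Npm1 -0.51) and 2 were higher and 2 lower in experiment 2 (Vim 1.83, Npm1 -0.77). Of 13 genes of the mTORC1 and S6 kinase pathway, 2 were higher and 8 lower in experiment 1 and 3 higher and 6 lower in experiment 2. Ddit4, an inhibitor of mTORC1, and Eif4ebp1, a repressor of translation, rose by 2.09 and 1.80 in experiment 1 and fell by 0.93 and 1.01 in experiment 2. Of 6 transcription factors known for ribosomal protein promoters, 1 was higher and 4 lower in experiment 1, where Myc fell by 0.48, and 2 (Max and Gabpb1) were higher and none lower in experiment 2. As a check of the treatment, Socs3, a direct target of STAT signalling, rose by 4.91 in experiment 1 and by 4.66 in experiment 2 on the log2 scale. Short transcripts did not share the movement of the set in experiment 1: of 1181 other tested genes with a transcript of at most 1000 bases, 412 were higher and 542 lower, with a median of -0.14, and in experiment 2 173 of 1112 were higher and 380 lower, with a median of -0.16.

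Within the set, sequence features went with the responses weakly. Members with a terminal oligopyrimidine tract had a median log2 fold change of 0.22 (29 tested) and those without it 0.17 (32 tested) in experiment 1, and -0.36 and -0.26 in experiment 2, with quartiles that overlapped. Members with and without CCGGAA had medians of 0.19 and 0.22 in experiment 1 and -0.35 and -0.26 in experiment 2. Across the 77 core members, the GC content of the transcript had a Pearson r of 0.30 with the response in experiment 1 and of -0.24 with that in experiment 2, against 0.18 and -0.09 over 13884 and 13684 tested genes with a transcript. Transcript length had an r of 0.04 and 0.16, and the number of near-identical copies an r of -0.07 and 0.05. These points share libraries and depth, and the values are descriptions across genes.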

How the data were processed

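RNA of 20 libraries was sequenced. Per the submitters' processing notes, the tools were TopHat2 2.0.11, Bowtie2 2.2.6, SAMtools 0.1.8, bedtools 2.25.0 and edgeR, with build GRCm38 (mm10). The deposited tables give, for each of 31682 transcripts, the read count and the RPKM, which the authors scaled by transcript length and mapped reads. The counting program and the use of strand are not given in the sources used here. Groups followed the sample labels, in which mIL-21 carries the name WT, with 2 libraries in each of 10 groups. The study's methods describe sequencing replicates as independent, made from different tissue preparations or donors, and which mouse gave which library is not given in the sources used here.

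Each gene was represented by its longest transcript. Counts were filtered (edgeR 4.0.16, minimum count 10, minimum total 15), scaled by TMM (trimmed mean of M values) and tested with the quasi-likelihood test in 1 fit for each experiment and 1 fit of both, with Benjamini-Hochberg adjustment over all genes tested and a threshold of 0.05. Log2 fold changes are those of TMM-scaled counts, and RPKM levels are as deposited. Scripts were tested on simulated data. Members and lists were chosen with earlier results of these data known. Named members were the stalk proteins, the paralogs and their core genes, the members with the highest and lowest mean RPKM, up to 3 members on either side with the largest deviation from the median of the set in the main comparisons, and outliers. Some genes that the rule would name are not reported here. Examples from other lists were those with the largest changes, and Eef1b2 and Socs3 are given as further members of theirs.

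Alternatives were DESeq2 1.42.0, library sizes from mapped reads, TMM without the members, no filter on low counts, limma 3.58.1 on log2(RPKM + 1), the most-read transcript, the compared groups alone, the replicate number as a block and leaving out each library. With 2 libraries against 2, an exact permutation test of a single value cannot go below p = 0.333, so none is given for the shares. Copies were found with BLAST 2.17.0. Intervals of counting error were not computed for shares of so many reads.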

Additional observations from a re-analysis of the deposited data

Results flagged for a closer look

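Among the named members, 27 responded to cytokine differently in the 2 experiments by edgeR's quasi-likelihood test of the difference (experiment 2 minus experiment 1, log2 scale, Benjamini-Hochberg adjusted p from 6.09e-13 to 0.00774). The experiments differ in dose range and in libraries, which cannot be told apart. Several named members were picked for a large response in 1 of the experiments, so the count of 27 is not an independent result. Of all 82 tested members 74 passed, beside 64.7% of all genes tested. Among the 27, the difference was positive for 3 paralogs, at 1.59 for Rpl7l1, 1.18 for Rps27l and 0.91 for Rps4l. It was negative for the other 24, and beyond -1 for Rps2 (-1.21), Rpl13 (-1.05), Rpl22l1 (-1.04), Rplp1 (-1.02), Rps14 (-1.02) and Rpl36 (-1.005). Of the remaining large subunit genes, it was -0.85 for Rpl3, -0.80 for Rpl39, -0.72 for Rplp2, -0.68 for Rpl27a, -0.66 for Rpl41, -0.65 for Rplp0, -0.62 for Rpl32, -0.58 for Rpl10, -0.55 for Rpl8, -0.53 for Rpl22, -0.49 for Rpl7, -0.41 for Rpl36a, -0.37 for Rpl4 and -0.35 for Rpl23a. Of the remaining small subunit genes, it was -0.79 for Rpsa, -0.71 for Rps27, -0.64 for Rps4x and -0.37 for Rps25.

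The difference between 21h10 and mIL-21 changed with dose for Rpl7l1 in experiment 1, by 0.31 on the log2 scale from 100 pM to 1 nM (SE 0.07, edgeR adjusted p = 0.00401), since its level was lower with 21h10 at 100 pM and nearly equal at 1 nM.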

How the results depend on the processing

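Leaving aside single omitted libraries, the counts of members that passed moved little under most alternatives, and the comparisons of 21h10 with mIL-21 were the least stable. The counts in this section are of members only, without the share of all genes that passed in the same refit. At 100 pM, the count of 22 became 5 with library sizes from mapped reads and 4 with limma on RPKM, with medians of -0.021 and -0.019, and 47 with the compared groups alone. At 1 nM, the count of 14 became 34 with DESeq2, 3 with mapped reads, 2 with limma and 2 with the compared groups alone, and the test of the dose difference gave 2 with mapped reads. In experiment 2, the count of 0 at 10 nM became 3 with no filter and 1 with the compared groups alone, and the count of 0 at 100 nM became 2 with DESeq2, 11 with no filter and 9 with the compared groups alone. Against unstimulated cells, mapped reads and limma moved the median to 0.22 and 0.22 for mIL-21 at 100 pM, 0.15 and 0.15 for 21h10 at 1 nM (0.29 with the compared groups alone), -0.57 and -0.56 for all groups of experiment 2, -0.49 and -0.48 for mIL-21 at 10 nM, -0.58 and -0.57 for 21h10 at 10 nM, -0.56 and -0.56 for mIL-21 at 100 nM, and -0.66 and -0.64 for 21h10 at 100 nM. The count for mIL-21 at 10 nM fell to 24 with the compared groups alone, and that for 21h10 at 10 nM rose to 72 with mapped reads and 68 with limma. As a share of mapped reads, the members took 9.23% in unstimulated cells of experiment 1, 10.96% with mIL-21 and 10.92% with 21h10 at 100 pM, and 10.3% and 10.5% at 1 nM. With the most-read transcript, the share for 21h10 at 1 nM was 12.4%. In experiment 2 the shares of mapped reads were 8.22%, then 6.03% and 5.65% at 10 nM and 5.83% and 5.46% at 100 nM. Rpl30 in experiment 2 changed sign, to -0.24 with mapped reads and to -0.24 with limma, and Rpl41 in the 1 nM comparison ranged from -0.22 to 0.18 with 1 library left out, the latter without duplicate 2 of mIL-21. Beyond the construction of each alternative, the cause of these changes was not tested.

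With 1 library left out at a time, counts ran from 55 to 72 for all treated groups of experiment 1 (medians 0.17 to 0.23), 43 to 63 for mIL-21 and 54 to 67 for 21h10 at 100 pM (medians 0.13 to 0.15 and 0.21 to 0.28), 45 to 63 for mIL-21 and 55 to 71 for 21h10 at 1 nM (medians 0.090 to 0.23 and 0.21 to 0.27). For 21h10 against mIL-21 they ran from 5 to 32 at 100 pM and 3 to 42 at 1 nM (medians 0.05 to 0.12 and 0.028 to 0.16), 0 to 6 across doses (medians 0.0046 to 0.13) and 1 to 7 for the dose difference, where 7 passed without duplicate 1 of mIL-21 at 1 nM. In experiment 2 they ran from 43 to 62 for all treated groups (medians -0.41 to -0.23), 16 to 57 for mIL-21 and 21 to 52 for 21h10 at 10 nM (medians -0.38 to -0.20 and -0.39 to -0.21), and 19 to 56 for mIL-21 and 36 to 58 for 21h10 at 100 nM (medians -0.45 to -0.23 and -0.43 to -0.25). For 21h10 against mIL-21 at 10 nM and 100 nM they ran from 0 to 0 and 0 to 6 (medians -0.11 to 0.05 and -0.12 to 0.06), and for the difference between experiments from 72 to 78. By correlation across genes, the replicate numbers did not pair the libraries in every pair of groups. Same-numbered libraries deviated together (r over 0.1) in 0 of 10 pairs of groups in experiment 1 and 3 of 10 in experiment 2 over all genes tested. Over the members they did so in 4 of 10 pairs in each experiment (r from -0.49 to 0.36 and from -0.56 to 0.54). A shift common to the members does not enter an r over them, and duplicate 1 had the higher member share in all 5 groups of experiment 2. A pairing there is therefore not excluded. With the replicate number as a block, 64 members passed for all treated groups of experiment 1 in place of 65, and 65 for those of experiment 2 in place of 58. For 21h10 against mIL-21 at 100 nM, 5 passed with the block in place of 0. Duplicates limit the precision of every comparison, and low counts that of Rps4l and Rpl39l.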
